A study of Drosophila melanogaster with 20 samples.

Results

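The genes described here are the nuclear genes of oxidative phosphorylation in Drosophila embryos. Members are protein-coding genes outside the mitochondrial genome whose FlyBase symbol begins with ND-, UQCR-, COX4 to COX8 or ATPsyn, together with SdhA, SdhB, SdhC and SdhD. The rule uses names only and no measured value. It matched 84 symbols, of which 65 reached a mean of at least 10 expected counts over the 20 libraries and were tested among 11154 genes. By complex these are 33 genes of complex I, 4 of complex II, 6 of complex III, 9 of complex IV and 13 of complex V.

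RNA was sequenced from whole embryos of mixed stages, laid over 24 h at 25 °C, in 10 groups of 2 libraries. The groups carry hairpins (RNAi) or overexpression constructs (UAS) for the ligand gene Wnt4, the co-receptor gene otk (written otk-1) and its neighbor homolog otk2 (written otk-2). A combination of maternal tubulin GAL4 and daughterless GAL4, which act in the mother's germline and broadly in the embryo, drove them. The groups are WT (whose genotype is given as control, with no alleles named), UAS-wnt-4, UAS-otk-1 (which carries an HA tag), UAS-otk-1 UAS-wnt-4, otk-2 RNAi, wnt-4 RNAi, otk-1 RNAi, wnt-4 RNAi otk-1 RNAi, wnt-4 RNAi otk-2 RNAi and otk-1 RNAi otk-2 RNAi. The labels write these names without most of the hyphens, and several hairpin stocks are listed for otk-1 and otk-2 without a statement of which was used. The study places UAS-wnt-4, UAS-otk-1, UAS-otk-1 UAS-wnt-4 and otk-2 RNAi in an activating class (8 libraries) and the other 5 RNAi groups in a deactivating class (10 libraries). It formed these classes on these same samples, so they are not independent of the expression values. The labels do not say whether the 2 libraries of a group are separate collections of embryos, so p-values measure only the spread between these libraries, which may be technical.

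Oxidative phosphorylation transfers electrons from NADH (complex I) and succinate (complex II) through complex III to oxygen at complex IV, and ATP synthase (complex V) uses the resulting proton gradient to make ATP. The mitochondrial genome encodes a few central subunits of complexes I, III, IV and V, while the remaining subunits, and the whole of complex II, are nuclear genes. In Drosophila many respiratory genes have a duplicate, often marked by a final L in its symbol, that is expressed mainly in testis.

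Each library held 33641572 to 41753907 counts, and the members together made up 0.839 to 1.13% of the counts of tested genes. Wnt4, otk and otk2 were measured to check the labels, in CPM, counts scaled by TMM to the same depth over the tested genes. Wnt4 stood at 126.2 and 107 CPM in WT and at 2463 to 3050 CPM with UAS-wnt-4. For the group labelled wnt-4 RNAi it stood at 159 and 143 CPM, higher than in WT (log2 fold change 0.37 ± 0.15, adjusted p = 0.0544), which goes against the label. It was at 74.9 to 89.2 CPM in the double RNAi groups with wnt-4 RNAi, and about as low in groups with no wnt-4 hairpin, at 62.9 and 84.5 CPM with otk-2 RNAi, 89.4 and 90.1 with otk-1 RNAi, 66.2 and 78.8 with otk-1 RNAi otk-2 RNAi and 81.0 and 83.9 with UAS-otk-1. The Wnt4 level thus gives no check of the wnt-4 hairpin. otk was at 46.0 to 91.3 CPM in the groups with otk-1 RNAi, against 199 and 178 CPM in WT, and otk2 was at 18.8 to 28.4 CPM in those with otk-2 RNAi, against 67.5 and 61.6 CPM. A stage score, the mean log2 CPM of 53 genes of late embryos minus that of 39 genes of early ones, was 2.04 and 0.83 in WT, -0.48 to 1.11 in the activating class and -1.20 to 0.00 in the deactivating class. Every deactivating library was thus below both WT libraries in this score, and so was every activating library except UAS-wnt-4 replicate 1, at 1.11. In whole embryos, fewer cells of a type and less RNA per cell cannot be told apart.

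The ubiquitous copies were expressed in every library. Of the 63 members of the name list that are not L-type, 62 passed the filter, each with at least 573 counts in every library. The exception was ND-B8, with 0 to 3 counts. On the scale of mean CPM per kilobase of effective length, the highest level was that of ND-MLRQ at 1719, an accessory subunit whose human counterpart has been placed with complex IV. It was followed by COX7B at 972, ATPsynC at 921, COX8 at 917, ATPsynG at 880 and ND-AGGG at 785. The highest levels in complex III were those of UQCR-11 at 685 and UQCR-Q at 603, and the lowest levels among the ubiquitous copies were those of SdhA at 57.9 and ND-13B at 77.6. In 32 of the 65 members an exon overlaps an exon of another gene, on the same strand in 7. The sources used here do not say whether reads were counted by strand.

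Against WT, no member passed the threshold in the 4 activating groups when all libraries were used. The edgeR quasi-likelihood test with Benjamini-Hochberg adjustment over all genes tested (threshold 10%) called 0 of 65 members in UAS-wnt-4, where 0.61% of all genes were called (0.215% higher, 0.394% lower), and 0 in UAS-otk-1, where 2.84% were (1.19% and 1.65%). It called 0 in UAS-otk-1 UAS-wnt-4, against 4.82% of all genes (1.35% and 3.47%), and 0 in otk-2 RNAi, against 1.78% (0.475% and 1.31%). At an unadjusted p under 0.05 there were 0, 0, 1 and 2 members in these 4 comparisons, and DESeq2 called 0, 0, 0 and 1. The members at an unadjusted p under 0.05 were ATPsynepsilonL with UAS-otk-1 UAS-wnt-4 (log2 fold change 0.83), and ND-AGGG (0.54) and ATPsynG (0.31) with otk-2 RNAi. They are named after their values were seen. Without WT replicate 2, 13 members were called lower in UAS-otk-1, and 3 members were called in otk-2 RNAi. The share of all genes called without this library is not given here. WT replicate 1 was above WT replicate 2 in 51 of 62 ubiquitous members, by a median of 0.20 on the log2 scale.

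In the deactivating groups members moved in both directions. All comparisons with WT share its 2 libraries. For the libraries labelled wnt-4 RNAi the test called 11 members higher and 12 lower, where 59.2% of all genes were called (29.7% higher, 29.5% lower). For otk-1 RNAi it called 4 higher and 6 lower, against 45.5% of all genes (21% and 24.5%), and for wnt-4 RNAi otk-1 RNAi 30 higher and 8 lower, against 62.2% (30.9% and 31.4%). For wnt-4 RNAi otk-2 RNAi it called 7 higher and 16 lower, against 54.7% (27.7% and 27%), and for otk-1 RNAi otk-2 RNAi 6 higher and 2 lower, against 46.8% (22.5% and 24.4%). The share of members called, 58.5% at its highest, lay below that of all genes in each of these 5 comparisons. These totals depend on single libraries, and the share of all genes called without a library is not given here. Without WT replicate 1 the total was 9 in place of 23 for wnt-4 RNAi, 1 in place of 10 for otk-1 RNAi, 9 in place of 23 for wnt-4 RNAi otk-2 RNAi and 3 in place of 8 for otk-1 RNAi otk-2 RNAi. Leaving out a replicate of the RNAi group itself gave 11 (wnt-4 RNAi replicate 1), 2 and 1 (otk-1 RNAi replicates 1 and 2), 25 (wnt-4 RNAi otk-1 RNAi replicate 2), 8 and 10 (wnt-4 RNAi otk-2 RNAi replicates 1 and 2) and 2 (otk-1 RNAi otk-2 RNAi replicate 2).

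Set against the activating class, the deactivating class had 19 members higher and 18 lower, so 37 of 65 (56.9%) were called, where 64.9% of all genes were (30.4% higher, 34.5% lower). The comparison takes the mean of 5 groups against that of 4. Its standard errors and p-values reflect the spread between libraries of a group and leave out the spread between groups of a class. The median log2 fold change was -0.00 over the members and -0.05 over all genes tested. Complex I had 8 genes higher and 9 lower, complex II 2 and 2, complex III 1 and 3, complex IV 2 and 1, and complex V 6 and 3. These counts include the L-type genes, 1 of them the fall in complex IV, and over the members together neither direction exceeds its share among all genes. Apart from the L-type genes, the called changes were small, between -0.33 for SdhC and 0.48 for ND-30.

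**Figure D1:**
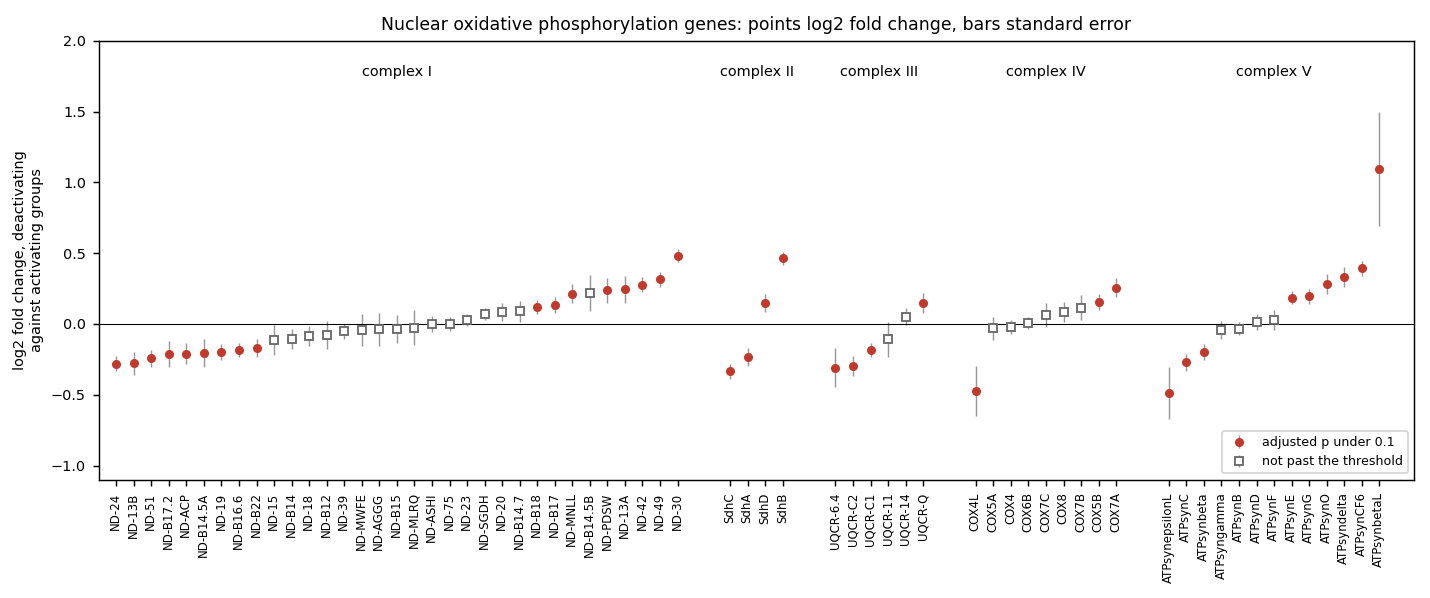
Log2 fold change of each of the 65 members, deactivating against activating class (means of 5 against 4 groups, of 2 libraries each), by complex. Points are estimates, bars are standard errors from the spread between libraries of a group, and color marks members past the 10% threshold. Complex II holds SdhB at 0.47 and SdhC at -0.33, and complex V holds ATPsynCF6 at 0.39 and ATPsynC at -0.27.

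Complex II, succinate dehydrogenase, had 2 subunits that rose and 2 that fell in the class comparison, SdhD by the narrowest margin. SdhB (FBgn0014028; dm6, 2R, 6807626 to 6809172), the iron-sulfur subunit, stood at 111 and 111 CPM in WT. In the activating groups it stood at 97.4 and 107 CPM with UAS-wnt-4, 105 and 121 with UAS-otk-1, 101 and 105 with both constructs and 103 and 99.2 with otk-2 RNAi. In the deactivating groups it stood at 149 and 158 CPM for the label wnt-4 RNAi, 131 and 134 with otk-1 RNAi, 170 and 176 with wnt-4 RNAi otk-1 RNAi, 133 and 142 with wnt-4 RNAi otk-2 RNAi and 130 and 131 with otk-1 RNAi otk-2 RNAi. All 10 deactivating libraries were above all 8 activating and both WT libraries. The fold change was 1.38 (0.47 ± 0.05, log2 ± SE, adjusted p = 3.63e-06). Against WT the log2 fold changes of SdhB were 0.46, 0.25, 0.64, 0.31 and 0.23 in the 5 deactivating groups in this order, each past the threshold.

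SdhC (FBgn0037873; dm6, 3R, 11208887 to 11209849), a membrane anchor of the complex, moved the other way. Its lowest, median and highest CPM were 58.6, 65.4 and 69.8 in the activating class and 46.1, 50.8 and 58.7 in the deactivating class, with 79.4 and 62.0 in WT. The classes overlapped only between otk-1 RNAi replicate 2, at 58.7, and UAS-otk-1 replicate 1, at 58.6. The log2 fold change was -0.33 ± 0.05 (adjusted p = 0.000118). Against WT it was -0.53, -0.30, -0.48, -0.61 and -0.33 in the 5 deactivating groups in the order above, each past the threshold.

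SdhA (FBgn0261439; dm6, 2R, 19391863 to 19395971), the flavoprotein that oxidizes succinate, was at 126.2 to 159 CPM (median 154) in the activating class and at 103 to 142 CPM (median 130) in the deactivating class, with 176 and 155 CPM in WT. The class ranges overlapped, and the log2 fold change was -0.24 ± 0.06 (adjusted p = 0.00523). SdhD (FBgn0039112; dm6, 3R, 23759483 to 23760600), the other anchor, was at 45.7 to 54.7 CPM and 46.2 to 71.3 CPM, with a log2 fold change of 0.15 ± 0.06 (adjusted p = 0.0545). Its call was lost in 10 of 20 fits that each left out 1 library (log2 fold changes of 0.10 to 0.14), with the length trend removed (0.10) and in the class without wnt-4 RNAi otk-1 RNAi (0.07). Its highest values were 67.2 and 71.3 CPM with the hairpins wnt-4 RNAi otk-1 RNAi, followed by 66.6 CPM in otk-1 RNAi otk-2 RNAi replicate 2. Once the stage score was a covariate, SdhA was no longer called (log2 fold change -0.16), while SdhB (0.46) and SdhC (-0.24) were. Exons of SdhA, SdhB and SdhD overlap exons of CG11257, CG15237 and PTPMT1, and SdhC overlaps none.

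**Figure D2:**
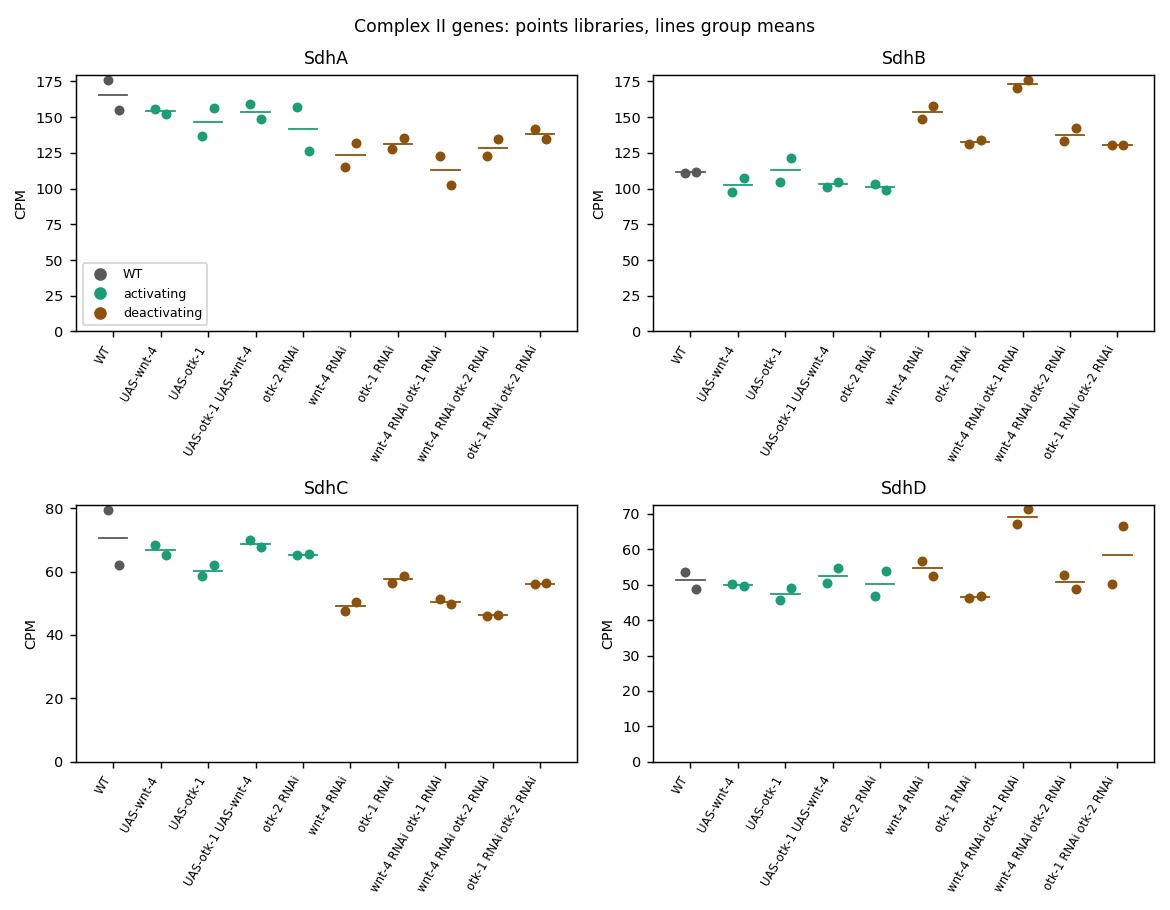
CPM of SdhA, SdhB, SdhC and SdhD in each of the 20 libraries, by group; each point is a library and color marks WT, the activating class and the deactivating class. SdhB is at 130 CPM or more in all 10 deactivating libraries and at 121 CPM or less in the other 10, while SdhC is at 58.7 CPM or less in the deactivating libraries.

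In complex I the core subunits, those with bacterial counterparts, also split. Of the 7 core genes 2 rose and 2 fell. ND-30 and ND-49, of the module next to the quinone site, rose, while ND-20 (0.08) and ND-23 (0.03) of that module were not called. ND-24 and ND-51, of the module that oxidizes NADH, fell, while ND-75 (-0.00 ± 0.05) of that module was not called.

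ND-30 (FBgn0266582; dm6, 3L, 3158485 to 3159578) was at 77.5, 85.4 and 87.5 CPM (lowest, median, highest) in the activating class and at 94.4, 119 and 139 CPM in the deactivating class, with 87.1 and 79.4 CPM in WT. The classes did not overlap, and the lowest deactivating values, 94.4 and 97.7 CPM, were those of wnt-4 RNAi otk-2 RNAi. The fold change was 1.40 (0.48 ± 0.05, adjusted p = 2.92e-06). ND-49 (FBgn0039909; dm6, 4, 568296 to 571554) was at 169, 187 and 198 CPM and at 200, 227 and 307 CPM in the activating and deactivating classes, with 212 and 180 CPM in WT. The classes did not overlap but nearly met, WT replicate 1 lay inside the deactivating range, and the log2 fold change was 0.32 ± 0.05 (adjusted p = 0.000237).

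ND-24 (FBgn0030853; dm6, X, 17632089 to 17633509) was at 56.3, 60.5 and 69.4 CPM in the activating class and at 42.3, 49.0 and 59.6 CPM in the deactivating class, with 68.8 and 60.4 CPM in WT. The ranges overlapped, and the groups with wnt-4 RNAi held the 6 lowest values, 42.3 to 49.4 CPM. The log2 fold change was -0.28 ± 0.05 (adjusted p = 0.000402). ND-51 had a log2 fold change of -0.24 ± 0.06 (adjusted p = 0.00336), and one of its exons overlaps CG34180. Of the 26 accessory subunits 6 rose and 7 fell. The rises were those of ND-42 at 0.28, ND-13A and ND-PDSW at 0.24 each, ND-MNLL at 0.22, ND-B17 at 0.13 and ND-B18 at 0.12. The falls ran from -0.28 for ND-13B to -0.17 for ND-B22, with ND-B17.2 and ND-ACP at -0.21, ND-B14.5A and ND-19 at -0.20 and ND-B16.6 at -0.18 between them. Once the stage score was added, ND-19 kept its call (-0.21) and the other 6 falls lost theirs, with ND-13B at -0.12, ND-B17.2 at -0.06, ND-ACP at -0.04, ND-B14.5A at -0.03, ND-B16.6 at -0.12 and ND-B22 at -0.17. Leaving out 1 library cost ND-B14.5A its call in 12 of 20 fits and ND-B17.2 in 5. The accessory subunits with the highest level per kilobase, ND-MLRQ (-0.03 ± 0.12) and ND-AGGG (-0.04 ± 0.12), were not called.

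In complex III the core proteins UQCR-C1 (-0.18 ± 0.05) and UQCR-C2 (-0.29 ± 0.07) and the small subunit UQCR-6.4 (-0.31 ± 0.14) fell, and UQCR-Q (0.15 ± 0.07) rose. UQCR-C2 (FBgn0250814; dm6, 3L, 16584124 to 16586111) was at 193, 211 and 257 CPM in the activating class and at 147, 178 and 245 CPM in the deactivating class, with 276 and 210 CPM in WT. The ranges overlapped, and otk-1 RNAi otk-2 RNAi replicate 2 held the highest deactivating value. UQCR-11 (-0.11) and UQCR-14 (0.05) were not called. When the stage score was added to the fit, UQCR-C1 (-0.13), UQCR-C2 (-0.13), UQCR-6.4 (-0.07) and UQCR-Q (0.20) were not called and UQCR-14 (0.16) was. Leaving out 1 library cost UQCR-Q its call in 14 of 20 fits and UQCR-6.4 in 9.

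In complex IV the ubiquitous subunits called were COX7A (0.26 ± 0.07) and COX5B (0.16 ± 0.06), both higher. COX7A (FBgn0040529; dm6, 3R, 8339944 to 8341043) was at 150, 175 and 195 CPM in the activating class and at 178, 197 and 256 CPM in the deactivating class, with 196 and 157 CPM in WT, so that all 3 ranges overlapped. The call of COX5B was lost without otk-2 RNAi replicate 1, wnt-4 RNAi replicate 1 or wnt-4 RNAi otk-1 RNAi replicate 2, with log2 fold changes of 0.10, 0.13 and 0.11. COX4 (-0.02), COX5A (-0.03), COX7B (0.12) and COX8 (0.08) were not called.

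In complex V the peripheral stalk genes ATPsynCF6 and ATPsynO rose, while the catalytic subunit gene ATPsynbeta and the rotor gene ATPsynC fell. The other stalk genes, ATPsynB (-0.03) and ATPsynD (0.01), were not called. ATPsynCF6 (FBgn0016119; dm6, 3R, 23355220 to 23356064), of the peripheral stalk, was at 156, 160 and 183 CPM in the activating class and at 173, 205 and 286 CPM in the deactivating class, with 172 and 158 CPM in WT. Only otk-2 RNAi replicate 2 and UAS-otk-1 UAS-wnt-4 replicate 2 reached into the deactivating range, and the log2 fold change was 0.39 ± 0.05 (adjusted p = 4.02e-05). ATPsynO (FBgn0016691; dm6, 3R, 15265591 to 15266690), also of the stalk, was at 235, 244 and 297 CPM and at 258, 291 and 469 CPM, with 227 and 230 CPM in WT and a log2 fold change of 0.28 ± 0.07 (adjusted p = 0.0039). Its class ranges overlapped. ATPsyndelta of the central stalk rose by 0.33 ± 0.07 while ATPsyngamma (-0.04) of that stalk was not called, and the membrane subunits ATPsynG and ATPsynE rose by 0.19 ± 0.05 and 0.18 ± 0.05.

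ATPsynC (FBgn0039830; dm6, 3R, 31216145 to 31219630) encodes the subunit that repeats around the rotor ring. It was at 808, 918 and 949 CPM in the activating class and at 632, 746 and 806 CPM in the deactivating class, with 1023 and 976 CPM in WT. All deactivating libraries were below all others, narrowly at the closest, and the log2 fold change was -0.27 ± 0.06 (adjusted p = 0.00165). ATPsynbeta (FBgn0010217; dm6, 4, 1031484 to 1034917), the catalytic subunit, was at 1067, 1203 and 1265 CPM in the activating class and at 939, 1039 and 1187 CPM in the deactivating class, with 1386 and 1076 CPM in WT. Its ranges overlapped, and the log2 fold change of -0.20 ± 0.05 (adjusted p = 0.0067) was -0.07 and not called when the stage score was added. The microRNA mir-4949 overlaps an exon of ATPsynC on the same strand, and exons of ATPsynO, ATPsyndelta and ATPsynbeta overlap those of CG14864, CG2962 and CG11076.

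**Figure D3:**
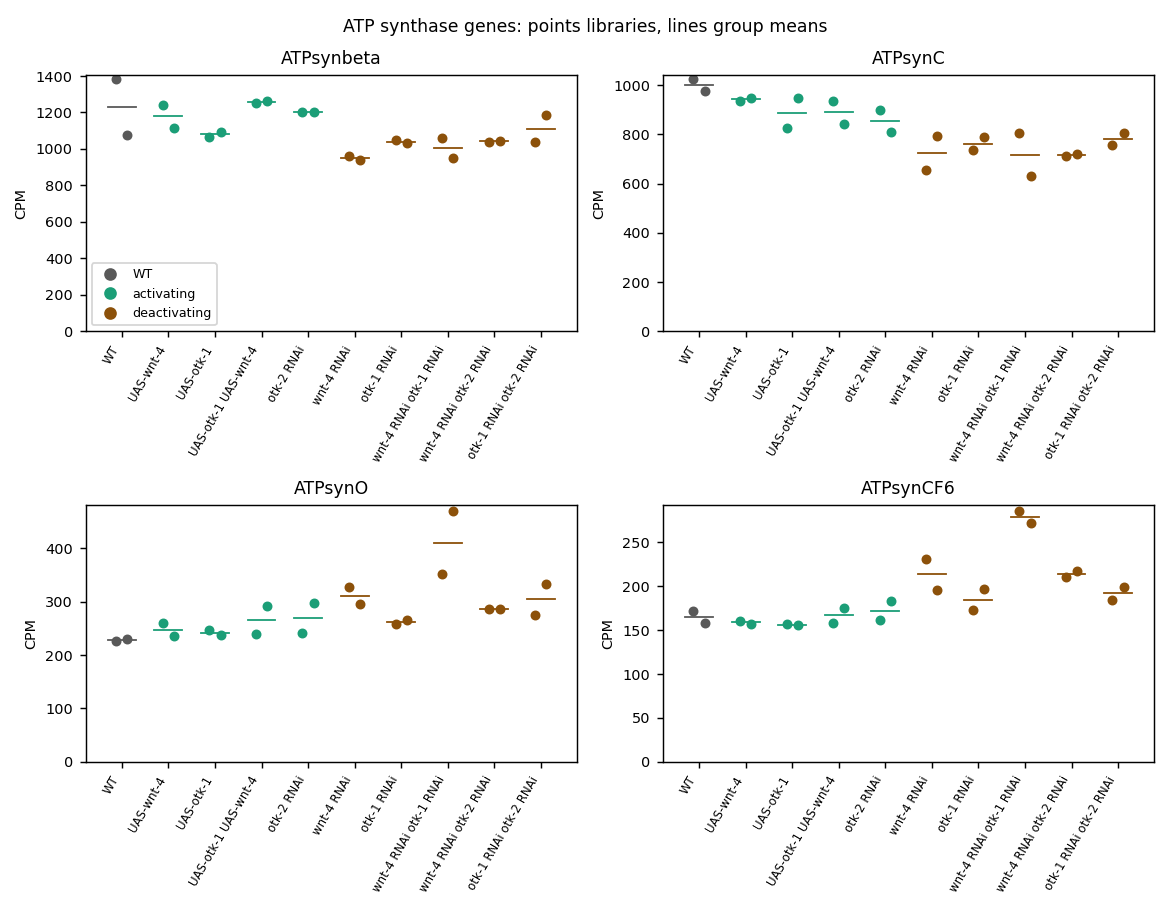
CPM of ATPsynbeta, ATPsynC, ATPsynO and ATPsynCF6 in each of the 20 libraries, by group; each point is a library and color marks WT and the classes. ATPsynC is at 806 CPM or less in the deactivating libraries and at 808 CPM or more in the rest, and ATPsynCF6 reaches 286 CPM and ATPsynO 469 CPM in wnt-4 RNAi otk-1 RNAi.

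Because every deactivating library, and every activating one except UAS-wnt-4 replicate 1, has a lower stage score than WT, the counts were set beside markers of stage. The summed CPM of 18 late muscle genes was 9873 to 15360 in WT, 6830 to 12432 in the activating class and 4973 to 7669 in the deactivating class, and 17 of the 18 fell in the class comparison. Of 20 late cuticle genes 14 fell and none rose, of 15 late neuron genes 11 fell and 3 rose, and of 18 early maternal genes 9 rose and 1 fell. The 21 early blastoderm genes, which are also part of the score, did not go with the maternal ones, since none rose and 11 fell. When the stage score was added as a covariate, 17 members were called higher and 5 lower in the class comparison, where 21.5% of all genes were called higher and 16.5% lower. The calls of 10 higher and 5 lower members held under each of 5 settings, namely the fit above, the added stage score, the length trend removed, the class without wnt-4 RNAi otk-1 RNAi (chosen after seeing the data), and DESeq2. The higher ones were SdhB, ND-30, ND-49, ND-42, COX7A, ATPsynCF6, ATPsyndelta, ATPsynO, ATPsynG and ATPsynE, and the lower ones SdhC, ND-24, ND-51, ND-19 and ATPsynC. Taken singly, these settings called 38% (stage score) to 66.5% (length trend removed) of all genes. The share of all genes called under all 5 is not given here, so the count has no background to be set against.

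The double group wnt-4 RNAi otk-1 RNAi stood apart from the other deactivating groups. Its median log2 fold change over the members was 0.27 against WT, where that of all genes was -0.08, and its 2 libraries had the highest medians of the members' deviations from their own means (0.17 and 0.31). These values depend on the TMM scaling. Before scaling, the members made up 0.977 and 0.924% of the counts of tested genes in this group, against 1.13 and 0.940% in WT. After scaling, their summed CPM was 10570 and 11193, against 10468 and 9046 in WT. ATPsynO was at 352 and 469 CPM in wnt-4 RNAi otk-1 RNAi, with a log2 fold change of 0.85 ± 0.15 against WT (adjusted p = 0.000408). ND-B14.5B (98.6 and 145 CPM, against 81.8 and 54.6 in WT) and ND-13A (69.6 and 98.9, against 53.0 and 42.2) rose by 0.84 ± 0.27 and 0.82 ± 0.20. For these genes both libraries of the group were above both WT libraries, replicate 2 by more. Complex I had 16 genes higher and 2 lower, complex II 2 and 2, complex III 3 and 2, complex IV 4 and 0, and complex V 5 and 2. The 8 members that fell were ND-24, ND-51, SdhA, SdhC, UQCR-C1, UQCR-C2, ATPsynC and ATPsynbeta, from -0.55 ± 0.13 for SdhA to -0.27 for UQCR-C1. The count of the group depended on its replicate 2, without which 20 members were higher and 5 lower, and on the WT libraries, with 37 higher and 5 lower without WT replicate 1 and 20 higher and 12 lower without WT replicate 2. With the stage score added, 32 members were higher and 0 lower, where 19.4% of all genes were higher and 12.9% lower.

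Length moved with these calls. The members have a median effective length of 419 bases, against 1586 for all genes tested. In wnt-4 RNAi otk-1 RNAi the members that rose had a median of 316 bases and those that fell one of 1298. The 43 members under 500 bases had a median log2 fold change of 0.35 against WT (22 higher, 1 lower), and the 22 longer ones one of -0.10 (8 higher, 7 lower). Once the trend with length over all genes was removed from each library, the same medians were 0.06 and -0.15. The members then split into 18 higher and 18 lower, with 18 of the 30 rises shared and 30.2% of all genes higher and 32.8% lower. In the class comparison the removal gave the same totals, with 34 of the 37 calls shared, those of ND-B17, ND-B18 and SdhD lost and those of COX7B, COX7C and ND-B14.5B gained.

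**Figure D4:**
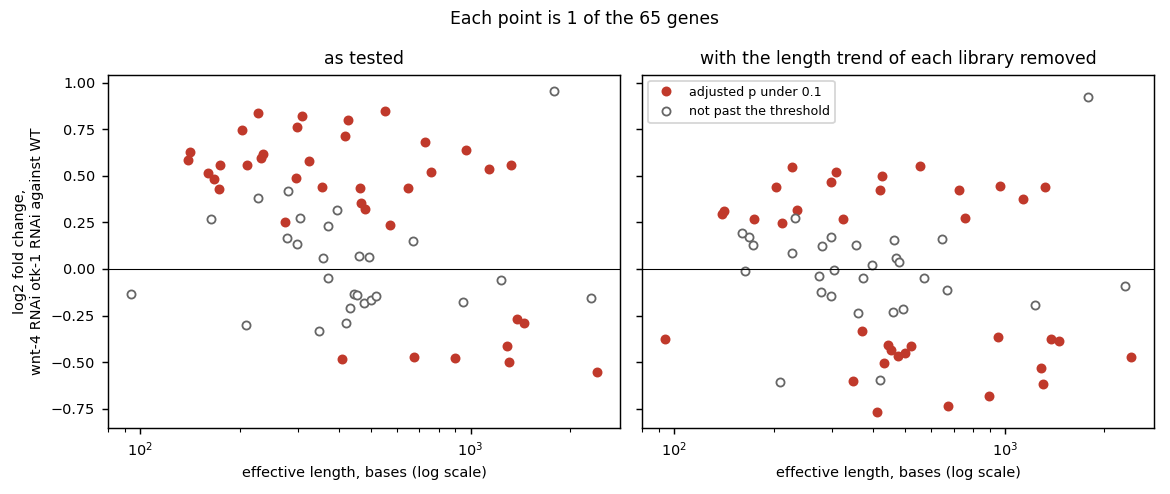
Log2 fold change of each member in wnt-4 RNAi otk-1 RNAi against WT (vertical axis) by effective gene length in bases (log axis). The panels show the values as tested and with the length trend of each library removed. Each point is a member, color marks members past the threshold, and the horizontal line marks no change. As tested, the 43 members under 500 bases have a median of 0.35 and the 22 longer ones a median of -0.10. With the trend removed, these medians are 0.06 and -0.15.

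Direct pairs compare a double RNAi group with one that carries 1 of its hairpins. In the pairs that differ by wnt-4 RNAi, Wnt4 itself did not pass the threshold, at -0.11 ± 0.15 (adjusted p = 0.661) against otk-1 RNAi and 0.10 ± 0.15 (adjusted p = 0.712) against otk-2 RNAi. Between wnt-4 RNAi otk-1 RNAi and otk-1 RNAi, 22 members were higher and 1, ND-24, was lower (31.2% of all genes called, 19.5% higher and 11.7% lower), with a median of 0.28 over the members and 0.06 over all genes. ATPsynO was at 352 and 469 CPM against 258 and 265 CPM (0.65 ± 0.15, adjusted p = 0.0084), and SdhD at 67.2 and 71.3 CPM against 46.2 and 46.7 CPM (0.57 ± 0.13, adjusted p = 0.0079). Neither pair of libraries overlapped the other. The total of 23 was 5 without wnt-4 RNAi otk-1 RNAi replicate 2, 8 and 12 without otk-1 RNAi replicate 1 or 2, and with the length trend removed 8 members were higher and 7 lower.

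Between otk-1 RNAi otk-2 RNAi and otk-2 RNAi, 2 members were higher and none lower (8.68% of all genes called, 3.59% higher and 5.09% lower). These were ND-30, at 121 and 137 CPM against 85.0 and 87.0 CPM (0.58 ± 0.10, adjusted p = 0.00567), and SdhB, at 130 and 131 CPM against 103 and 99.2 CPM (0.37 ± 0.10, adjusted p = 0.0509). Leaving out any of the 4 libraries compared left 1 member. Between wnt-4 RNAi otk-2 RNAi and otk-2 RNAi, 3 members were higher and 6 lower (20.8% called, 14.1% higher and 6.75% lower). SdhB was again higher, at 133 and 142 CPM (0.45 ± 0.10, adjusted p = 0.0118), with ND-42 at 0.32 and ATPsynCF6 at 0.32. SdhC was lower, at 46.1 and 46.4 CPM against 65.3 and 65.4 CPM (-0.50 ± 0.11, adjusted p = 0.013), with ND-13B, ND-19, ND-24, ND-51 and ND-B16.6 at -0.54 to -0.36. The total of 9 was 1 or 4 without wnt-4 RNAi otk-2 RNAi replicate 1 or 2, 3 or 4 without otk-2 RNAi replicate 1 or 2, and 17 or 15 without WT replicate 1 or 2. Both comparisons share the otk-2 RNAi libraries. Across the 10 groups, 32 members (49.2%) varied, where 64.1% of all genes did, with 14 of 33 in complex I, 4 of 4 in complex II, 3 of 6 in complex III, 3 of 9 in complex IV and 8 of 13 in complex V.

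The L-type paralogs had few counts in these embryos. Of 21, only COX4L, ATPsynbetaL and ATPsynepsilonL passed the filter, and the other 18 together held 16 to 52 counts per library, with ATPsynCF6L and UQCR-14L at 0 in every library. A count of 0 is a statement at this depth only. Just inside the filter was ATPsynbetaL, at a mean of 12.3 counts, and just outside was ND-51L1, at 9.1. Among 25 genes of spermatocytes and sperm found in the files, 7 passed the filter. Of the 7, Tektin-C held 249 to 1273 counts, mia 244 to 462, achi 194 to 558 and vis 19 to 189. Lower were can at 7 to 59, betaTub85D at 9 to 43 and comr at 0 to 43. Below the filter, dj, ProtA, ProtB, Mst84Da to Mst84Dd and Mst98Ca and Mst98Cb were at 0 to 4 counts. Mst87F, fzo and topi, also below it, reached 7, 17 and 24 counts. The summed CPM of the 25 was 56.3 to 62.4 in WT, 45.9 to 64.7 in the activating class and 34.0 to 45.5 in the deactivating class, 1 of the 7 tested rose and 3 fell, and their part in the results on the L-type genes was not tested.

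COX4L (FBgn0033020; dm6, 2R, 5353994 to 5354723) held 55 and 45 counts in WT, 29 to 55 in the activating class and 22 to 41 in the deactivating class. These were 0.235 to 0.535% of the counts of its partner COX4 (FBgn0032833; dm6, 2L, 19958713 to 19960065), and the ranges of the classes overlapped. The log2 fold change was -0.47 ± 0.18 (adjusted p = 0.0328) for COX4L and -0.02 for COX4. Over group means, the log2 ratio of COX4L to COX4 was lower in the deactivating class by a difference of -0.45 (p = 0.0317, exact two-sided permutation test of 5 against 4 groups). This p-value is unadjusted, since no test of the pair of ATPsynbetaL and ATPsynbeta is used here, and the classes were formed on these same samples. The difference was no longer past 0.05 without otk-2 RNAi replicate 2 (exact permutation p = 0.127), wnt-4 RNAi replicate 2 (0.0635) or wnt-4 RNAi otk-1 RNAi replicate 1 (0.175).

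ATPsynbetaL (FBgn0036568; dm6, 3L, 16097834 to 16100088) was measured at very low counts. It held 5 and 13 counts in WT, 2 to 16 in the activating class and 6 to 33 in the deactivating class, or 0.00468 to 0.0873% of the counts of ATPsynbeta. The class ranges overlapped, and the libraries of a group could differ widely, as in UAS-otk-1 UAS-wnt-4 with 2 and 16 counts. Its mean was 16.6 counts in the deactivating class, 7.88 in the activating class and 9 in WT, so it passed the filter of 10 only through the class where it is high. Its log2 fold change of 1.09 and the difference of 1.49 in its log2 ratio to ATPsynbeta are therefore a description, with no test used, although it is among the 19 members counted as higher. ATPsynepsilonL (FBgn0051477; dm6, 3R, 10121773 to 10122320), a paralog of the epsilon subunit gene sun, held 68 and 44 counts in WT, 45 to 116 in the activating class and 23 to 99 in the deactivating class, with a log2 fold change of -0.49 ± 0.18 (adjusted p = 0.0342). Its partner lies outside the name rule and was chosen after values were seen, and the log2 ratio differed by -0.51 with no test. Once the stage score was added, neither COX4L (-0.45) nor ATPsynepsilonL (-0.32) was called, though the estimate of COX4L hardly moved, and the estimate of ATPsynbetaL was 0.59.

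**Figure D5:**
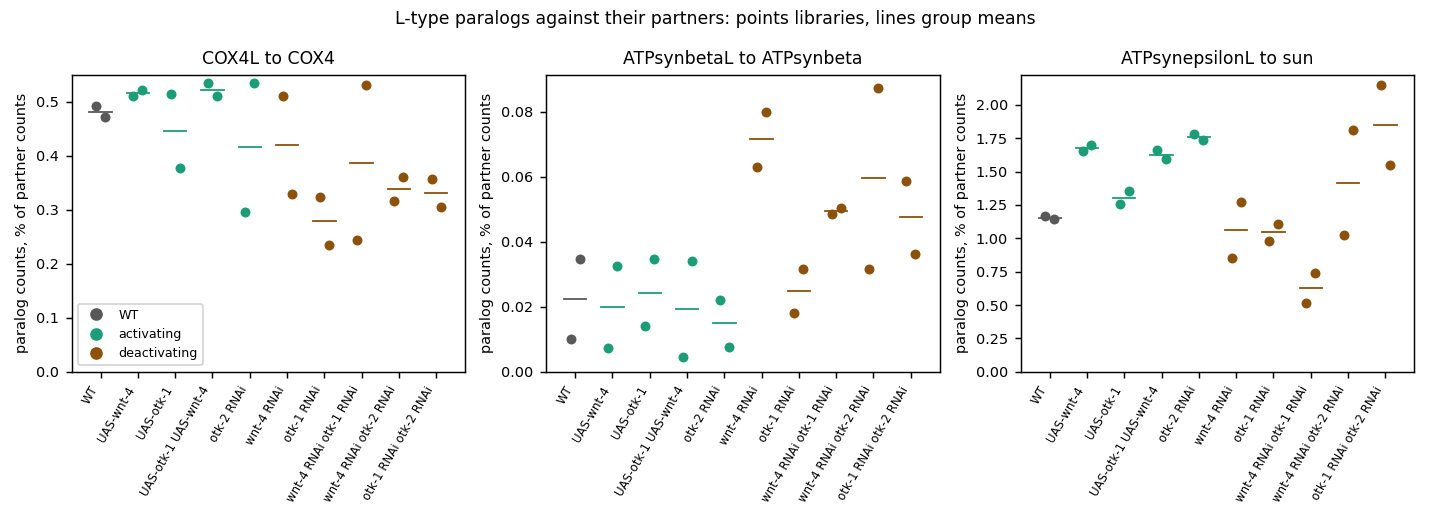
Counts of COX4L, ATPsynbetaL and ATPsynepsilonL as a percentage of the counts of COX4, ATPsynbeta and sun in each of the 20 libraries, by group. Each point is a library, lines are group means and color marks WT and the classes. On the log2 scale (prior of 0.5 counts), the mean ratio over groups is lower by 0.45 for COX4L in the deactivating class. It is higher by 1.49 for ATPsynbetaL, and the libraries of the classes overlap for both.

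Related mitochondrial genes were counted from lists in the class comparison, where 30.4% of all genes were higher and 34.5% lower. Of 10 genes of oxidative phosphorylation with other names, 3 rose and 3 fell, among them the ADP/ATP translocase genes sesB (0.46) and Ant2 (-0.41), which moved in opposite directions, and the cytochrome c gene Cyt-c-p (0.29). Of 12 assembly factors 3 rose and 4 fell, with Sdhaf3, an assembly factor of succinate dehydrogenase, at 0.40 and Bcs1, which inserts the Rieske protein, at -0.31. Of 17 genes of the tricarboxylic acid cycle and its entry 7 rose and 7 fell, with Pdk, the kinase that inhibits pyruvate dehydrogenase, at 0.75, Scsalpha1 of succinyl-CoA synthetase at 0.55 and Ogdh of the oxoglutarate dehydrogenase complex at 0.39.

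Of 13 glycolytic genes none rose and 5 fell, with the lactate dehydrogenase gene Ldh at -0.57, Gapdh2 at -0.40 and Pfk at -0.37. Of 18 regulators of mitochondrial DNA and biogenesis 5 rose and 3 fell, with TFAM, the packaging factor of mitochondrial DNA, at 0.90 and the kinase gene Pink1 at 0.83. The assembly factor gene Ccdc56 and mtTFB1, both at 1.16, have identical values in the files and cannot be told apart. Of 13 import genes 3 rose and 8 fell, with the chaperonin gene Hsp60A at -0.48, Tom70 at 0.46 and ttm50 at -0.38. Of 17 gut genes 3 rose and 2 fell and of 8 fat body genes 3 rose and 2 fell.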

How the data were processed

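Embryo RNA was measured in 20 libraries of 10 groups. Each deposited file holds an expected count per gene, which the authors obtained with STAR 2.7.1a (alignment to dm6) and RSEM 1.3.1. Of these values 11.6% are not whole, and all were rounded. Of the other columns only the effective length was used, as a mean over the libraries.

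Of 17714 genes, 426 of types the study removes were left out, and 127 had no entry in the annotation used for names, positions and overlaps (Ensembl). The 11154 genes averaging 10 counts or more (30762928 to 38843051 counts per library) entered 1 edgeR 4.0.16 fit of all 20 libraries, with TMM scaling, quasi-likelihood tests and Benjamini-Hochberg adjustment at 10%. The fit had a common dispersion of 0.0336, 10 residual degrees of freedom and 4.31 prior ones. The spread between libraries thus limits the abundant genes, and counting error adds to it in the L-type ones. Logs of CPM used a prior of 0.5 counts. Alternatives included DESeq2 1.42.0, other scaling, filters and thresholds, a stage covariate and removal of a lowess trend with length. The script was tested on simulated data, with genes changed in otk-1 RNAi and compared with WT. It called 16 of 50 genes changed 1.5 times and 40 of 50 changed 2 times. Most changes of 1.5 times in a single group were thus missed. The COX4L ratio was tested by exact permutation in scipy 1.17.1.

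The members and gene lists were chosen with earlier results of these data known. Named are every L-type gene past the filter with its partner, for each complex the 2 highest levels per length and the 2 largest rises and falls between the classes, members past the threshold against the direction of most, and up to 3 genes of each other list by size of change. Other members are named only to complete a count.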

Additional observations from a re-analysis of the deposited data

Results flagged for a closer look

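The 13 protein genes of the mitochondrial genome were outside the comparisons. Their summed CPM, relative to the nuclear genes tested, was 22916 and 23028 in WT, and both libraries were above both WT libraries in 8 of the 9 other groups. The group means were 36050 with UAS-wnt-4, 33470 with UAS-otk-1 UAS-wnt-4, 35660 with otk-2 RNAi, 34330 with wnt-4 RNAi, 33310 with otk-1 RNAi, 44210 with wnt-4 RNAi otk-1 RNAi, 28560 with wnt-4 RNAi otk-2 RNAi and 35130 with otk-1 RNAi otk-2 RNAi. The exception was UAS-otk-1, at 29516 and 22274. Libraries of a group differed widely, as with wnt-4 RNAi otk-1 RNAi at 33251 and 55165, and no test was made. These genes held 2.19 to 4.08% of all counts, and mt:ATPase8 held 0 to 3 counts.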

How the results depend on the processing

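Counts of members past the threshold moved by over 1.5 times as follows. Against WT, the libraries labelled wnt-4 RNAi had 1 with the stage covariate and 6 in a fit of only the libraries compared. For otk-1 RNAi the counts were 5 with no filter, 4 at a threshold of 5%, 0 with the stage covariate and 2 with only the libraries compared. For otk-2 RNAi DESeq2 gave 1. The double group wnt-4 RNAi otk-1 RNAi had 20 with only the libraries compared and 12 with stage and length together, an alternative chosen after seeing the data. The double group wnt-4 RNAi otk-2 RNAi had 15 with no filter, 14 at 5%, 0 with the stage covariate and 6 with only the libraries compared. For otk-1 RNAi otk-2 RNAi they were 0 and 1 under these last settings. Between the classes the stage covariate gave 22, and across groups a threshold of 5% gave 21. The direct pair with otk-1 RNAi had 15 with the length trend removed. Against otk-2 RNAi, the pair with added otk-1 RNAi had 1 at 5%, with the stage covariate and with length removed, and 0 with only the libraries compared, while the pair with added wnt-4 RNAi had 15 with DESeq2 and 5 at 5%. The cause was not tested, except that fewer libraries or a stricter threshold are such by construction.

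With each replicate left out in turn, counts against WT stayed at 0 for UAS-wnt-4 and the double overexpression and ran from 0 to 13 for UAS-otk-1, 0 to 3 for otk-2 RNAi, 9 to 27 for wnt-4 RNAi, 1 to 14 for otk-1 RNAi, 25 to 42 for wnt-4 RNAi otk-1 RNAi, 8 to 28 for wnt-4 RNAi otk-2 RNAi and 2 to 11 for otk-1 RNAi otk-2 RNAi. They ran from 30 to 37 between classes, 22 to 39 across groups, and 5 to 27, 1 to 2 and 1 to 17 for the direct pairs in the order above. The shares of all genes called in these fits are not given here. The COX4L ratio difference ran from -0.56 to -0.34 and that of ATPsynbetaL, for which no test is used, from 1.17 to 1.82. The uncalled COX5A ran from -0.10 to 0.02, ND-AGGG from -0.13 to 0.05 and ND-MLRQ from -0.12 to 0.04.

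Other reversals, none of a called member, were COX4 (0.04), COX5A (0.08), ND-AGGG (0.08), ND-MLRQ (0.09) and UQCR-11 (0.05) with the stage covariate, ND-MLRQ with the length trend removed (0.03) and with both (0.01), and UQCR-14 (-0.01) in the class without wnt-4 RNAi otk-1 RNAi. The difference between replicates 1 and 2 correlated above 0.1 in 17 of 45 pairs of groups, from -0.225 to 0.554. These correlations cannot decide whether libraries with the same number were handled together. A replicate block gave 1 call in place of 0 in otk-2 RNAi, where the share of all genes called went from 1.78% to 2.64%. In UAS-otk-1 that share went from 2.84% to 9.6%, with 0 members called.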
